A study of Mus musculus with 31 samples.

Results

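The genes of the Hox clusters A to D were followed across 9 populations of mouse bone marrow, from long-term stem cells to granulocytes. Members were all genes named Hoxa, Hoxb, Hoxc or Hoxd plus a number in the array's probe annotation, which gave 38 genes. Of these, 37 had a probe of their own among the 19938 genes tested, with 10 in cluster A and 9 each in clusters B, C and D. The single probe of Hoxb8 is shared with Hoxb7, so Hoxb8 entered no test.

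All 31 arrays came from wild-type C57BL/6 mice, and the labels used here give neither age nor sex. Each RNA came from 20000 cells, sorted by surface proteins in 2 passes in a row to raise purity. The labels call the replicates biological without naming an animal or a pool, so p-values measure the spread between these samples. Arrays of stem cells and GMP were reused by the same laboratory as the controls of another experiment.

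Long-term stem cells (LT-HSC, n = 4) lacked lineage markers, Flk2 and CD48 and carried cKit, Sca1 and CD150. Short-term stem cells (ST-HSC, n = 3) differed from them by lacking CD150. Among the multipotent progenitors, which were lineage-negative with cKit and Sca1, MPP2 (n = 3) carried CD48 and CD150, MPP3 (n = 3) carried CD48 without CD150, and MPP4 (n = 5) carried Flk2. Common myeloid progenitors (CMP, n = 3) were lineage-negative and carried cKit and CD34 without the Fc gamma receptor, and lineage-negative granulocyte-macrophage progenitors (GMP, n = 4) carried the Fc gamma receptor as well as cKit and CD34. Pre-granulocytes (PreGr, n = 3) carried Mac1 with intermediate Gr1, and granulocytes (Gr, n = 3) carried Mac1 with high Gr1.

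Hox genes encode homeodomain transcription factors that lie in chromosomal clusters in the order in which they are used along the body axis. Paralogues, the genes at the same position of different clusters, share a number. In blood, genes of clusters A and B are known for their activity in stem cells and early progenitors, and Hoxa9 with its cofactor Meis1 is known for its role in myeloid leukaemia. MLL and DOT1L complexes maintain Hox transcription and Polycomb complexes repress it.

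The clusters also hold microRNA genes, whose mature sequences are shown because they fall into 2 seed families. The sequences are RefSeq's (GRCm38.p6), 5′ to 3′, and capitals mark the seed, bases 2 to 8.
miR-10a (Mir10a, cluster B, chr11:96317186-96317208, plus strand): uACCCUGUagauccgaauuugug
miR-10b (Mir10b, cluster D, chr2:74726074-74726096, plus strand): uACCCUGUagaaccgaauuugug
miR-196a (Mir196a-1, cluster B, chr11:96265187-96265208, plus strand): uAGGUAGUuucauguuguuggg
miR-196b (Mir196b, cluster A, chr6:52230129-52230150, minus strand): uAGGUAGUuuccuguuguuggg
Mir196a-2 of cluster C (chr15:102973365-102973386, plus strand) gives the same mature sequence as Mir196a-1.

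Promoter windows are shown for Hoxa5, Hoxa6, Hoxa9 and Hoxa10, the genes of cluster A that fell in at least 1 of the comparisons described below. Each holds the 250 bases before a RefSeq transcript start on the minus strand of GRCm38.p6, and Hoxa10 has 2 starts. Capitals mark matches, on either strand, to TGATNNAT (the Hox-Pbx motif), TGACAG (Meis), TTTATG (Cdx), TATAAA or CCAAT.
Hoxa5 (chr6:52204588-52204837): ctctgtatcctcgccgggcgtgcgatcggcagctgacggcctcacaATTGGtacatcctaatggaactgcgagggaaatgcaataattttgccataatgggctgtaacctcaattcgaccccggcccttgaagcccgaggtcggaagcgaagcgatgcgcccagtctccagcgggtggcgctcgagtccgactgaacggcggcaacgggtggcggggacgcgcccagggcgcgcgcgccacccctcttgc
Hoxa6 (chr6:52208673-52208922): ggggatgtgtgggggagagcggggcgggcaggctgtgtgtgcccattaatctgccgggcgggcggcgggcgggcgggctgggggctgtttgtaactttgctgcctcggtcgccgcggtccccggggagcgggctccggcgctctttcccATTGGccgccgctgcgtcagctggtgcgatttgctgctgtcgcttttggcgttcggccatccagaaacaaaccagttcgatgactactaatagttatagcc
Hoxa9 (chr6:52227371-52227620): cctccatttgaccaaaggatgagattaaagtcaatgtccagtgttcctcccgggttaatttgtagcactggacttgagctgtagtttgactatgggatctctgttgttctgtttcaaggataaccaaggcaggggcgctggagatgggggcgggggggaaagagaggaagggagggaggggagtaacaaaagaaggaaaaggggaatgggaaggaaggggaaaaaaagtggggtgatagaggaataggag
Hoxa10, first start (chr6:52240855-52241104): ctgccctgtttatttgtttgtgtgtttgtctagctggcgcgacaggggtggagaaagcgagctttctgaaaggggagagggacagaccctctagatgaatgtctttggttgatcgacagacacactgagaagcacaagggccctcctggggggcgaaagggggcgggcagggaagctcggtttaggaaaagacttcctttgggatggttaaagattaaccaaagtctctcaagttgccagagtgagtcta
Hoxa10, second start (chr6:52234940-52235189): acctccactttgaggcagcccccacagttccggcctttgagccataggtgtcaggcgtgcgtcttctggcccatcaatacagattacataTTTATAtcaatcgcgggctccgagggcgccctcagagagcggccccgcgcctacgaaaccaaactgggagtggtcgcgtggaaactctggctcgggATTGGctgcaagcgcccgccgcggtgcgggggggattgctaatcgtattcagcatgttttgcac
CCAAT matched in the windows of Hoxa5, Hoxa6 and the second Hoxa10 start, and TATAAA matched in the last of these. Neither Hoxa9 nor the first Hoxa10 start held any of the 5 motifs. Of 32851 promoter windows of this length in the table, 33.8% held CCAAT, 12.4% TATAAA, 15.9% TGACAG, 10.8% TTTATG and 7.68% TGATNNAT. Windows were found for 21 of the 37 members. A match describes letters, not a binding site.

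Levels are on the log2 scale of the RMA output that was deposited, brought here to a common scale by quantile normalization. The deposited arrays fell into 5 sets, linked by values identical between arrays, and the medians of single arrays ran from 6.19 to 7.83. LT-HSC 1 to 3 formed a set of their own, and LT-HSC 4, MPP3 3, MPP4 4, MPP4 5 and GMP 4 formed another. The third held ST-HSC 1 to 3, MPP2 1 to 3, MPP3 1 and MPP3 2. The fourth held MPP4 1 to 3 and CMP 1 to 3, and the fifth held GMP 1 to 3 with all PreGr and Gr arrays. The set of LT-HSC 4 was the most weakly linked. Its arrays each shared 6 to 8 values with their own set, against at least 16 for arrays of the other sets. No array shared more than 2 values with other sets. The medians of this weakly linked set overlapped those of the fourth, and all set-adjusted comparisons against LT-HSC rest on it. Every comparison was therefore made with the set as a block and again without sets. A gene is said here to have risen or fallen only where limma called it in the same direction in both fits, at a Benjamini-Hochberg adjusted p under 0.05 over all genes. In MPP2 against ST-HSC, and in Gr against PreGr, the 2 populations share 1 set, so both fits give the same difference. There the second fit is no separate check of direction.

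The sort markers followed the gates in part. Slamf1, the gene of CD150, averaged 8.71 ± 0.61 in LT-HSC, 5.05 ± 0.34 in ST-HSC and 6.83 ± 0.41 in MPP2. Flt3, the gene of Flk2, averaged 11.27 ± 0.54 in MPP4 and 9.96 ± 0.09 in ST-HSC, and Ly6g, part of the Gr1 antigen, averaged 12.82 ± 0.08 in Gr and 5.33 ± 0.40 in GMP. Against the gates, Flt3 was higher in ST-HSC than in LT-HSC (8.21 ± 0.25) and MPP2 (8.18 ± 0.48) in both fits, although all 3 were sorted without Flk2. Fcgr3, a gene of the Fc gamma receptor, was higher in GMP than in CMP in both fits, in the direction of the gates. It was also higher in CMP (7.40 ± 0.32), sorted without the receptor, than in MPP4 (6.94 ± 0.08) in both fits. The gate given for MPP4 does not name the receptor. In MPP2 against LT-HSC both fits called 0 of the 8 sort markers, with Cd48 at 9.77 ± 0.55 in MPP2 and 6.80 ± 0.54 in LT-HSC. In bulk samples, fewer cells of a type and less RNA per cell cannot be told apart.

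Cluster A held the members whose level moved most between populations. Over its 10 genes, the difference between the highest and the lowest population mean had a median of 1.04, against 0.56 in cluster B, 0.49 in C, 0.41 in D and 0.68 over all genes tested. It ran up to 3.33 for Hoxa5, 2.35 for Hoxa10 and 2.08 for Hoxb5, and down to 0.19 for Hoxd12. The mean was highest in LT-HSC or ST-HSC for 7 of 10 genes in cluster A, 4 of 9 in B, 1 of 9 in C and 0 of 9 in D, against 21.9% of all genes. These means take no account of the sets, and for LT-HSC 1 to 3 set and population cannot be told apart. The 14 members whose mean lay in the lowest 25% of genes included all of cluster C but Hoxc9. The others were Hoxd1, Hoxd4 and Hoxd8, and in A and B Hoxa2, Hoxa11 and Hoxb6. Hoxa7, Hoxb2 and Hoxb6 had their highest mean in LT-HSC. With the set as a block limma's F test did not call them (adjusted p 0.0862, 0.199 and 0.538).

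In limma's F test over the 9 populations, both fits called 11 of the 37 members, where they called 44.3% of all genes. The share of Hox genes called was thus below that of all genes. The 11 were Hoxa2, Hoxa3, Hoxa5, Hoxa6, Hoxa9, Hoxa10, Hoxb1, Hoxb3, Hoxb5, Hoxc10 and Hoxd3. With the set as a block 13 members were called, where all genes gave 48.0%, and without sets 24, where all genes gave 74.2%. Leaving out single arrays moved the first of these counts between 10 and 14. The members came to 6 of 10 in cluster A, 3 of 9 in B, and 1 of 9 in each of C and D. By position, 5 of 7 paralogues 1 to 3, 3 of 14 paralogues 4 to 8 and 3 of 16 paralogues 9 to 13 were called.

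**Figure D1:**
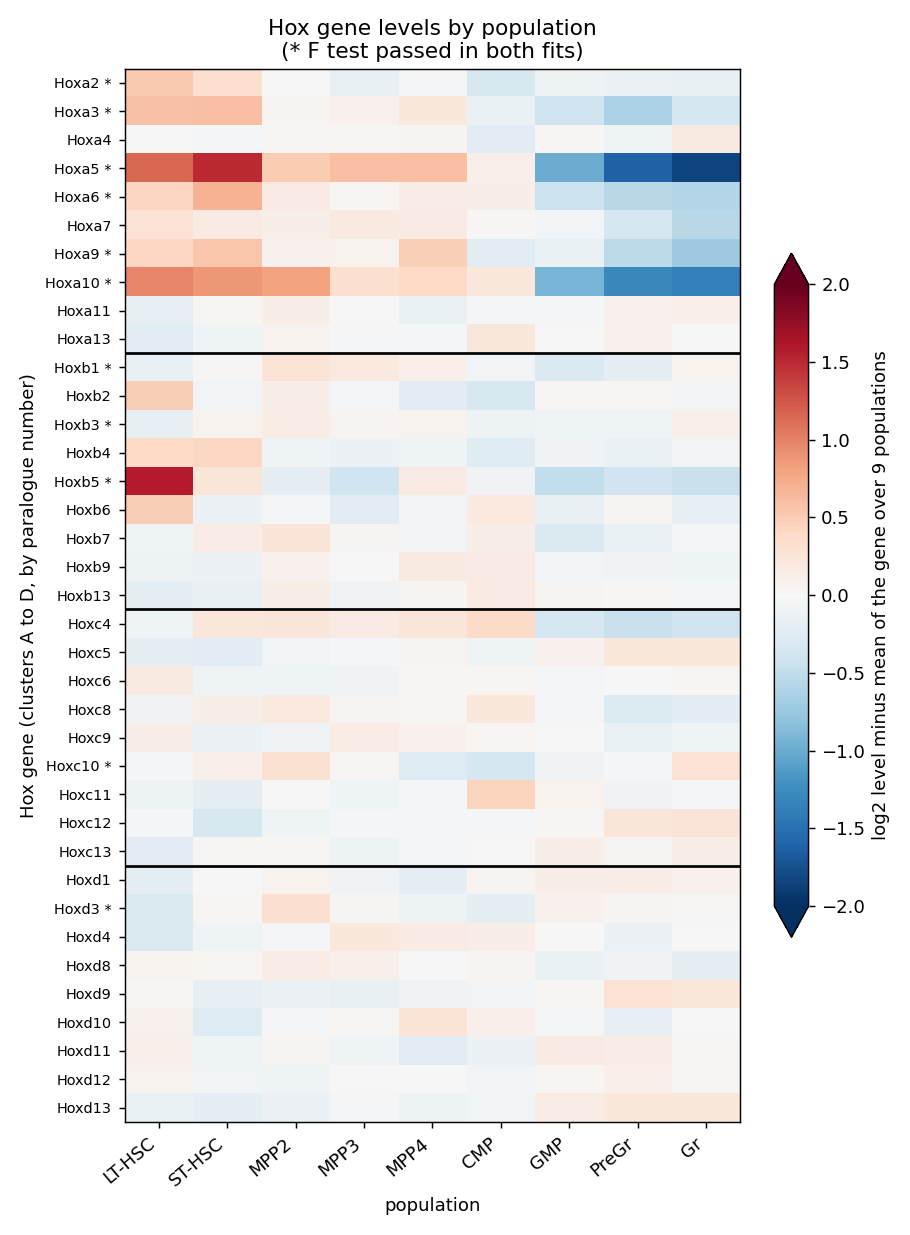
Population mean of each of the 37 Hox genes (rows, by cluster) in the 9 populations (columns, from LT-HSC to Gr), as log2 difference from the gene's own mean over populations. Hoxa5 and Hoxa10 run from high in the stem cells to low in PreGr and Gr, and Hoxb5 is highest in LT-HSC.

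**Figure D2:**
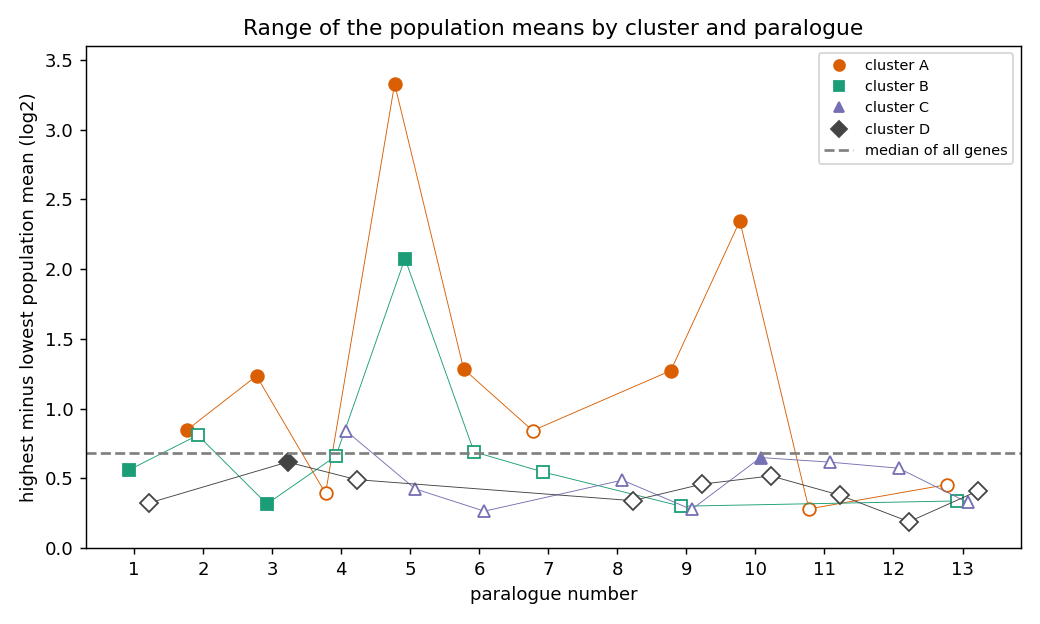
Range of population means (log2, vertical axis) of each Hox gene against its paralogue number, by cluster. Filled points are members called by the F test in both fits, and the dashed line is the median of all genes tested, 0.68.

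Hoxa5, a central gene of cluster A, showed the widest range. It stood at 8.65, 8.33, 8.74 and 8.35 in LT-HSC and at 9.69, 8.34 and 8.59 in ST-HSC. In the multipotent progenitors it stood at 7.81, 7.61 and 8.21 in MPP2, at 8.27, 8.23 and 7.42 in MPP3, and at 7.85, 8.0, 8.19, 7.53 and 8.33 in MPP4. CMP had 7.15, 7.61 and 7.65, GMP had 6.06, 6.02, 6.13 and 7.34, PreGr had 5.75, 5.67 and 5.84, and Gr had 5.59, 5.51 and 5.52. Every PreGr and Gr array lay below every array of the stem and progenitor populations, and GMP 4 lay above the other GMP arrays by more than their own spread. The F test gave an adjusted p of 0.00802 with the set as a block in limma.

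Hoxa10, a posterior gene known to promote the growth of early progenitors, ran alike. It stood at 8.41, 8.50, 8.59 and 7.66 in LT-HSC, and at 8.12, 8.38 and 8.04 in ST-HSC. It stood at 8.14, 8.19 and 8.06 in MPP2, at 7.78, 7.78 and 7.36 in MPP3, and at 7.73, 7.89, 7.90, 7.46 and 7.60 in MPP4. CMP had 7.52, 7.49 and 7.58, GMP had 6.08, 6.15, 6.31 and 6.98, PreGr had 6.10, 6.04 and 5.96, and Gr had 6.16, 5.73 and 5.95. All GMP, PreGr and Gr arrays lay below all arrays of the earlier populations, while LT-HSC 4 lay below the other LT-HSC arrays and GMP 4 above the other GMP arrays (F test adjusted p 0.00155, limma).

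Hoxa9, the leukaemia-associated posterior gene, had the smallest adjusted p of the F test among the members, 7.99e-06 in limma. It stood at 8.42, 8.49, 8.72 and 8.55 in LT-HSC, and at 8.95, 8.68 and 8.40 in ST-HSC. It stood at 8.16, 8.30 and 8.20 in MPP2, at 8.20, 8.17 and 8.23 in MPP3, and at 8.57, 8.51, 8.55, 8.68 and 8.75 in MPP4. The MPP4 arrays overlapped those of LT-HSC, and all 5 lay above all MPP2 and MPP3 arrays. CMP had 7.88, 7.84 and 8.0, GMP had 8.06, 8.12, 8.09 and 7.69, PreGr had 7.35, 7.88 and 7.58, and Gr had 7.51, 7.18 and 7.53. Every array of these 4 populations lay below every MPP4 array.

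Hoxa6 and Hoxa3, which lie near Hoxa5 in the cluster, had narrower ranges. Hoxa6 stood at 7.74, 7.66, 7.81 and 7.41 in LT-HSC, 8.08, 7.50 and 8.18 in ST-HSC, 7.17, 7.48 and 7.53 in MPP2, 7.37, 7.41 and 7.0 in MPP3, and 7.37, 7.52, 7.46, 7.14 and 7.37 in MPP4. It had 7.29, 7.53 and 7.19 in CMP, 6.74, 6.72, 6.77 and 6.94 in GMP, 6.66, 6.68 and 6.69 in PreGr, and 6.67, 6.58 and 6.65 in Gr. The GMP, PreGr and Gr arrays of Hoxa6 all lay below those of the earlier populations. Hoxa3 stood at 7.47, 7.54, 7.41 and 7.03 in LT-HSC, 7.67, 6.94 and 7.52 in ST-HSC, 7.0, 6.73 and 6.76 in MPP2, 6.79, 6.92 and 6.89 in MPP3, and 6.80, 6.88, 6.84, 7.14 and 7.30 in MPP4. It had 6.82, 6.57 and 6.54 in CMP, 6.29, 6.15, 6.31 and 6.77 in GMP, 6.24, 6.26 and 5.92 in PreGr, and 6.54, 6.33 and 6.40 in Gr. For Hoxa3 the later populations overlapped, and GMP 4 was again the highest GMP array.

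Hoxa2, near the anterior end of cluster A, was highest in the stem cells. It stood at 7.08, 6.58, 6.71 and 6.78 in LT-HSC, 6.77, 6.63 and 6.39 in ST-HSC, 6.2, 6.23 and 6.36 in MPP2, 6.17, 5.79 and 6.35 in MPP3, and 6.08, 5.98, 6.0, 6.63 and 6.37 in MPP4. CMP had 5.94, 5.87 and 6.0, GMP had 6.15, 6.11, 6.24 and 6.14, PreGr had 6.13, 6.26 and 6.06, and Gr had 6.12, 6.08 and 6.15. All stem cell arrays lay above those of CMP, GMP, PreGr and Gr, and the MPP4 arrays 4 and 5 lay above MPP4 1 to 3. Hoxa2 is among the 14 members whose mean lay in the lowest 25% of genes.

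Over the 9 population means, which share the sets of arrays, Hoxa5 correlated at 0.98 with Hoxa10, 0.97 with Hoxa6, and 0.93 with both Hoxa9 and Hoxa3. Its correlation with Hoxa2, also of cluster A, was lower, at 0.59. With described genes of other clusters it was 0.62 for Hoxb5, 0.36 for Hoxb1, -0.16 for Hoxc10 and -0.22 for Hoxd3. Of the genes that flank cluster A in RefSeq's order, Evx1, beyond Hoxa13, had a range of population means of 0.37. Skap2, on the other side, had 1.23 and was highest in Gr. The next genes out, Hibadh beyond Evx1 (range 1.00) and Snx10 beyond Skap2 (0.92), were both highest in ST-HSC. Both were called by the F test in both fits. Hibadh averaged 8.65 in LT-HSC and 7.94 in Gr, and Snx10 averaged 9.28 and 9.30.

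Hoxb5, a central gene of cluster B known to mark long-term stem cells in mice, was highest in LT-HSC. It stood at 8.68, 8.98, 8.85 and 7.22 in LT-HSC, against 7.10, 7.12 and 7.08 in ST-HSC. It stood at 6.65, 6.65 and 6.73 in MPP2, at 6.35, 6.72 and 6.28 in MPP3, and at 6.79, 8.01, 7.28, 6.43 and 6.55 in MPP4. CMP had 6.66, 6.89 and 6.82, GMP had 6.49, 6.49, 6.40 and 6.04, PreGr had 6.47, 6.53 and 6.43, and Gr had 6.46, 6.42 and 6.36. LT-HSC 1 to 3, the arrays of the set without any other population, lay above all 28 others, whereas LT-HSC 4 lay within the range of MPP4. Within the set that holds LT-HSC 4, that array was still the highest.

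Other genes of cluster B set LT-HSC 1 to 3 apart in the same way. Hoxb2 stood at 7.38, 7.32, 7.44 and 6.90 in LT-HSC and Hoxb6 at 6.89, 6.87, 7.03 and 6.02. In both, LT-HSC 4 was the lowest LT-HSC array. The probe that Hoxb7 and Hoxb8 share stood at 8.05, 7.50, 7.23 and 5.91 in LT-HSC, and at 5.41 to 6.77 on all other arrays. Set and array cannot be told apart here, since the set of LT-HSC 1 to 3 holds no other population.

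Hoxb1, at the anterior end of cluster B, had higher means in MPP2, MPP3 and MPP4 than in LT-HSC. It stood at 7.69, 7.69, 7.78 and 8.09 in LT-HSC, 7.89, 7.94 and 8.14 in ST-HSC, 8.35, 8.27 and 8.07 in MPP2, 8.03, 8.07 and 8.35 in MPP3, and 8.10, 8.16, 8.16, 8.10 and 7.8 in MPP4. It had 7.87, 8.01 and 7.86 in CMP, 7.68, 7.56, 7.68 and 7.76 in GMP, 7.77, 7.82 and 7.73 in PreGr, and 8.05, 8.02 and 8.03 in Gr. GMP had the lowest mean and MPP2 the highest, with overlap between most neighbouring populations.

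Clusters C and D moved least, but they also held most of the dim members, Hoxc10 among them. The part of low signal in their narrow ranges was not tested. Hoxc10 stood at 6.07, 6.12, 5.82 and 6.04 in LT-HSC, 6.21, 6.17 and 6.06 in ST-HSC, 6.41, 6.34 and 6.30 in MPP2, 6.06, 6.09 and 6.12 in MPP3, and 5.59, 5.5, 5.59, 6.35 and 5.93 in MPP4. It had 5.79, 5.75 and 5.56 in CMP, 5.96, 6.16, 6.03 and 5.78 in GMP, 6.03, 5.96 and 6.10 in PreGr, and 6.12, 6.50 and 6.39 in Gr. The MPP4 arrays split by set, with arrays 4 and 5 above arrays 1 to 3.

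Hoxd3 stood at 6.32, 6.46, 6.41 and 6.36 in LT-HSC, 6.65, 6.71 and 6.79 in ST-HSC, 7.16, 7.04 and 6.81 in MPP2, 6.86, 6.67 and 6.67 in MPP3, and 6.50, 6.44, 6.34, 6.80 and 6.82 in MPP4. It had 6.54, 6.46 and 6.47 in CMP, 6.73, 6.68, 6.85 and 6.78 in GMP, 6.75, 6.72 and 6.75 in PreGr, and 6.68, 6.74 and 6.70 in Gr. It was highest in MPP2, all of whose arrays lay above all LT-HSC arrays. The other 16 genes of clusters C and D were not called in both fits, with ranges of 0.19 to 0.84.

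**Figure D3:**
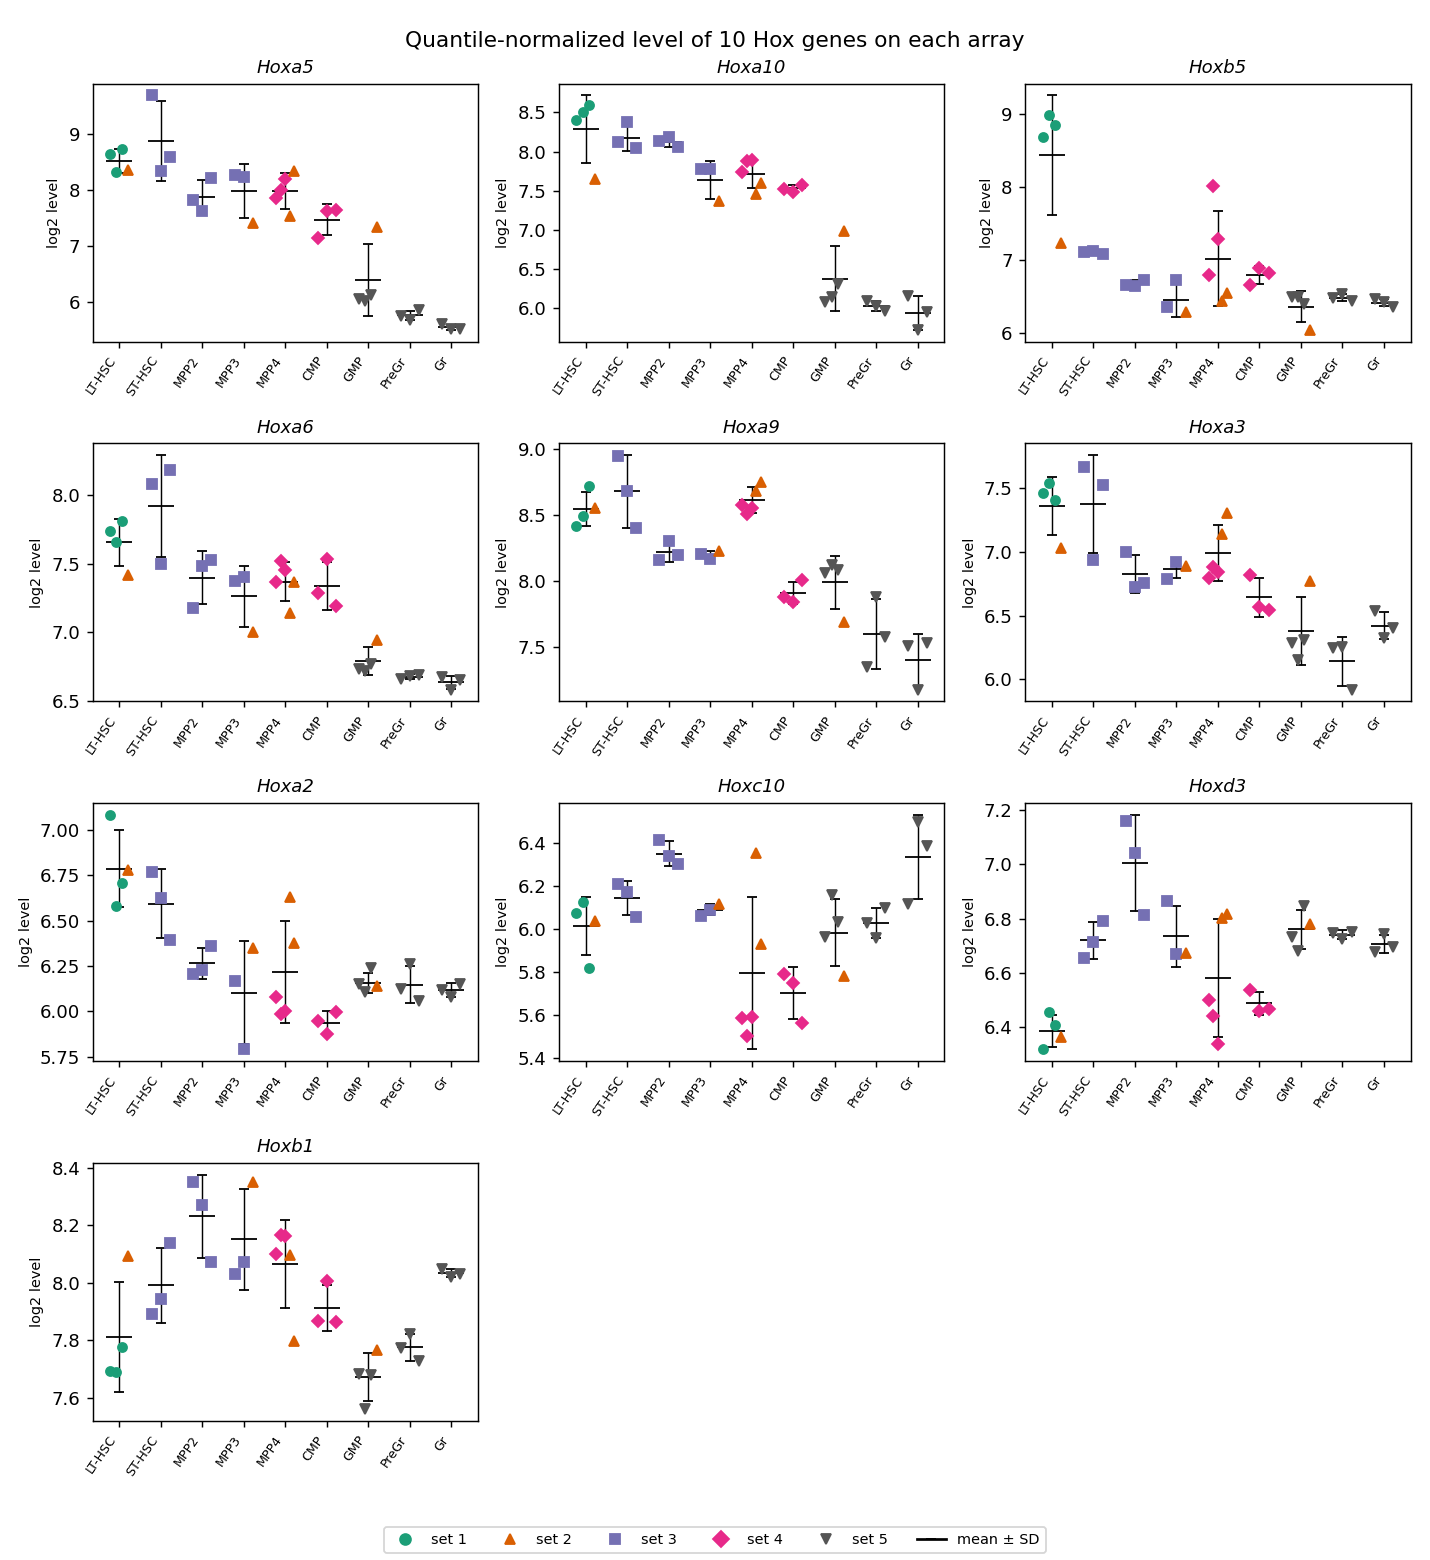
Quantile-normalized log2 level of the 10 members described array by array, in every array of the 9 populations, coloured by set of arrays, with mean ± SD. In the Hoxb5 panel LT-HSC 1 to 3 lie above the rest, and in the Hoxa5 and Hoxa10 panels GMP 4 lies above GMP 1 to 3.

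The first comparisons ask how the clusters change as stem cells give way to progenitors. All 5 comparisons against LT-HSC share the LT-HSC arrays, and their set-adjusted values rest on LT-HSC 4. In ST-HSC against LT-HSC limma called 0 of 37 members with sets, where 1.47% of all genes were called, and 4 had an unadjusted p under 0.05. Without sets 4 members were called, where all genes gave 22.8%, and both fits together gave 0 members and 0.537% of all genes. The largest of the 4 changes was that of Hoxb5, at -1.33, followed by Hoxb6 at -0.61 and Hoxb2 at -0.56, all lower in ST-HSC.

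In MPP2 against LT-HSC both fits called 2 of 37 members, where they called 4.45% of all genes, a share close to that of the members. With sets alone limma called 3 members, where all genes gave 8.16%, and without sets 13, where all genes gave 36.1%. Hoxb13 and Hoxd3 rose. Hoxb13, the posterior end of cluster B, stood at 6.55, 6.66 and 6.50 in MPP2, against 6.45, 6.33, 6.43 and 5.84 in LT-HSC. The groups did not overlap, and LT-HSC 4 was the lowest array. The set-adjusted difference was 0.79 ± 0.17 (SE, adjusted p 0.00952, limma) and that without sets was 0.30. The call without sets ended without LT-HSC 4, MPP2 1 or MPP2 2. Hoxd3 differed by 0.55 ± 0.17 (adjusted p 0.0498, limma), a call that ended when any of 26 single arrays was left out of the set-adjusted fit. Of the members called in 1 fit only, Hoxb5 differed by -1.76 and Hoxa3 by -0.54 without sets, and Hoxa4 by 0.92 with sets. Over all genes the median difference was 0.16 with sets and 0.00 without.

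In MPP3 and MPP4 against LT-HSC both fits called 0 members, where they called 4.02% and 1.99% of all genes. With sets limma called 1 member in each, Hoxb13 in both, where all genes gave 6.65% and 2.74%, and 11 and 6 members had an unadjusted p under 0.05. Without sets it called 12 and 10, where all genes gave 27.5% and 24.7%. The largest changes were those of Hoxb5, at -1.98 in MPP3 and -1.42 in MPP4. Next came Hoxa2 and Hoxb6, both at -0.69 in MPP3, and Hoxb2, at -0.71 in MPP4. With sets Hoxb13 differed by 0.58 in MPP4 against LT-HSC.

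In GMP against LT-HSC both fits called 3 of 37 members, Hoxa9, Hoxa10 and Hoxb5, where they called 6.65% of all genes. This share is close to that of the members. With sets 4 were called, where all genes gave 7.82%, and without sets 15, where all genes gave 35.2%. The fourth with sets was Hoxb13, which was higher in GMP and had the lowest set-adjusted p of the members. It was not called without sets. The 3 called in both fits all fell, and in each the GMP arrays lay below all LT-HSC arrays. Hoxa9 fell by 0.86 ± 0.22 with sets (adjusted p 0.0170, limma) and by 0.56 without. Hoxa10 fell by 0.68 ± 0.17 (adjusted p 0.0176, limma), and differed by -1.91 without sets. Hoxb5 fell by 1.18 ± 0.30 (adjusted p 0.0163, limma), and differed by -2.08 without sets. The set-adjusted values equal the difference of GMP 4 and LT-HSC 4, which could not be left out, so leaving out other arrays cannot move them. Fitted within that set alone none was called (adjusted p 0.157 to 0.344, limma).

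The fit without sets also called Hoxa5, at -2.13, Hoxa3, at -0.98, and Hoxa6, at -0.86, in GMP against LT-HSC. With sets these were -1.01, -0.26 and -0.47 and were not called. GMP 4 had the lowest S100a8 level, 9.39, of the GMP arrays, against 10.46 to 11.92 in the others. S100a8 encodes a calcium-binding protein of neutrophils. The part of this array's state in the Hox values was not tested. By cluster, the median difference of GMP from LT-HSC with sets was -0.36 in A, -0.10 in B, 0.28 in C and 0.17 in D, against 0.10 over all genes. Without sets it was -0.59 in A, -0.20 in B, 0.03 in C and 0.07 in D, against 0.06 over all genes.

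Among the progenitors that follow ST-HSC, the members that fell were all in cluster A. In MPP2 against ST-HSC both fits called 3 of 37 members, where they called 6.58% of all genes. This share is close to that of the members. With sets limma called 6, where all genes gave 10.8%, and without sets the same 3. Hoxa5 fell by 0.99 ± 0.24 (adjusted p 0.00832, limma), Hoxa6 by 0.52 ± 0.13 (adjusted p 0.00897, limma) and Hoxa9 by 0.46 ± 0.13 (adjusted p 0.0204, limma). For Hoxa5 and Hoxa9 the arrays of MPP2 all lay below those of ST-HSC, and for Hoxa6 they overlapped. With sets alone Hoxa3 differed by -0.55, Hoxd3 by 0.28 and Hoxb13 by 0.28. Each of the 3 calls made in both fits ended in at least 1 of the fits without ST-HSC 1 and without MPP2 1. In all, 20 single arrays ended that of Hoxa5, 5 that of Hoxa9 (also ST-HSC 2, MPP2 2 and MPP2 3) and 3 that of Hoxa6 (also ST-HSC 3). In MPP3 against ST-HSC both fits called 1 of 37 members, where they called 2.35% of all genes, again a close share. With sets limma called 2, where all genes gave 3.12%, and without sets 1, where all genes gave 3.15%. The call in both was Hoxa6, at -0.53 ± 0.14 (adjusted p 0.0433, limma), which fell, and the call ended when any of 19 single arrays was left out. Hoxa2 differed by -0.61 with sets only.

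All arrays of ST-HSC and MPP2 belong to 1 set, and a fit within it gave the same differences with adjusted p from 0.116 to 0.175 in limma. The mean level of the 9 mature neutrophil markers ran from 6.40 to 6.55 in MPP2 and from 6.23 to 7.17 in ST-HSC, and S100a8 stood at 9.58, 7.41 and 9.87 in ST-HSC. The 7 B and plasma cell markers averaged 6.78 to 7.68 in MPP2 and 7.88 to 8.26 in MPP3, against 6.32 to 6.46 in ST-HSC. The 5 megakaryocyte markers averaged 8.96 to 9.32 in MPP2, against 7.98 to 8.44 in ST-HSC, and 3 of them rose (Gp9, Gp5 and Itga2b). The 5 erythroid markers averaged 7.68 to 7.82 in MPP2, against 7.17 to 7.36 in ST-HSC, and 2 rose (Klf1 and Gata1). The 6 mast cell and basophil markers averaged 7.33 to 7.90 in MPP2, against 6.54 to 6.61 in ST-HSC, and 2 rose (Cpa3 and Fcer1a). The part of these cells in the Hox differences was not tested.

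Between multipotent progenitors MPP2 and MPP4 were each compared with MPP3. In MPP2 against MPP3 limma called 0 members in either fit, where 1.06% of all genes were called with sets, 0.963% without and 0.662% in both, and 6 had an unadjusted p under 0.05 with sets. In MPP4 against MPP3 it also called 0 in either fit, where 1.16% of all genes were called with sets, 1.56% without and 0.281% in both, and 4 had an unadjusted p under 0.05.

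Later in the series Hoxa9 was the member that fell, in CMP against MPP4 and in PreGr against GMP. In CMP against MPP4 both fits called 1 of 37 members, where they called 4.03% of all genes. Each fit by itself called 2, where all genes gave 7.23% with sets and 5.10% without. Hoxa9 fell by 0.64 ± 0.13 with sets (adjusted p 0.00300, limma) and differed by -0.70 without, and no array left out ended the call. The arrays of CMP all lay below those of MPP4. Megakaryocyte markers averaged 8.92 to 9.0 in CMP, against 7.21 to 7.52 in MPP4, and 4 of 5 rose. Mast cell and basophil markers averaged 8.15 to 8.29 in CMP, against 6.51 to 6.93 in MPP4, and 5 of 6 rose. Erythroid markers averaged 7.65 to 7.90 in CMP, against 7.14 to 7.40 in MPP4, and 2 of 5 rose (Klf1 and Gata1). Their part in the Hoxa9 difference was not tested. Hoxb5 differed by -0.57 with sets only, and Hoxc11 by 0.47 without sets only. In GMP against CMP both fits called 0 members, where they called 1.04% of all genes. With sets limma called 0, where all genes gave 1.32%, and 1 had an unadjusted p under 0.05. Without sets it called 7, where all genes gave 11.7%. Among these Hoxa10 differed by -1.15, Hoxa5 by -1.08 and Hoxc4 by -0.72 without sets, and by -0.24, -0.04 and 0.20 with them. In this comparison the set-adjusted fit rests on GMP 4.

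In PreGr against GMP both fits called 1 member, where they called 15.6% of all genes, so the share of Hox genes called was below that of all genes. Each fit by itself called the same member, where all genes gave 19.0% with sets and 16.6% without. Hoxa9 fell by 0.49 ± 0.13 (adjusted p 0.00727, limma), and the 2 groups overlapped. This call ended, in at least 1 of the fits, without any of 5 arrays, GMP 1, GMP 2, GMP 3, PreGr 1 or PreGr 3. In Gr against PreGr both fits called 0 members, where they called 19.3% of all genes. With sets limma called 2 members, Hoxc10 at 0.31 and Hoxb1 at 0.26, where all genes gave 26.5%, and 6 members had an unadjusted p under 0.05. Without sets it called 0, where all genes gave 19.3%. Mature neutrophil markers averaged 12.93 to 13.09 in Gr and 11.48 to 12.06 in PreGr, against 6.97 to 7.95 in GMP. B and plasma cell markers averaged 7.50 to 8.0 in PreGr, against 6.34 to 6.53 in GMP, and 3 of 7 rose. So did 4 of 7 T and NK cell markers and 4 of 7 macrophage and monocyte markers. Of 6 mast cell and basophil markers 1 rose, and 0 of 5 erythroid and 0 of 5 megakaryocyte markers did. The part of these cells in the Hoxa9 difference was not tested.

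**Figure D4:**
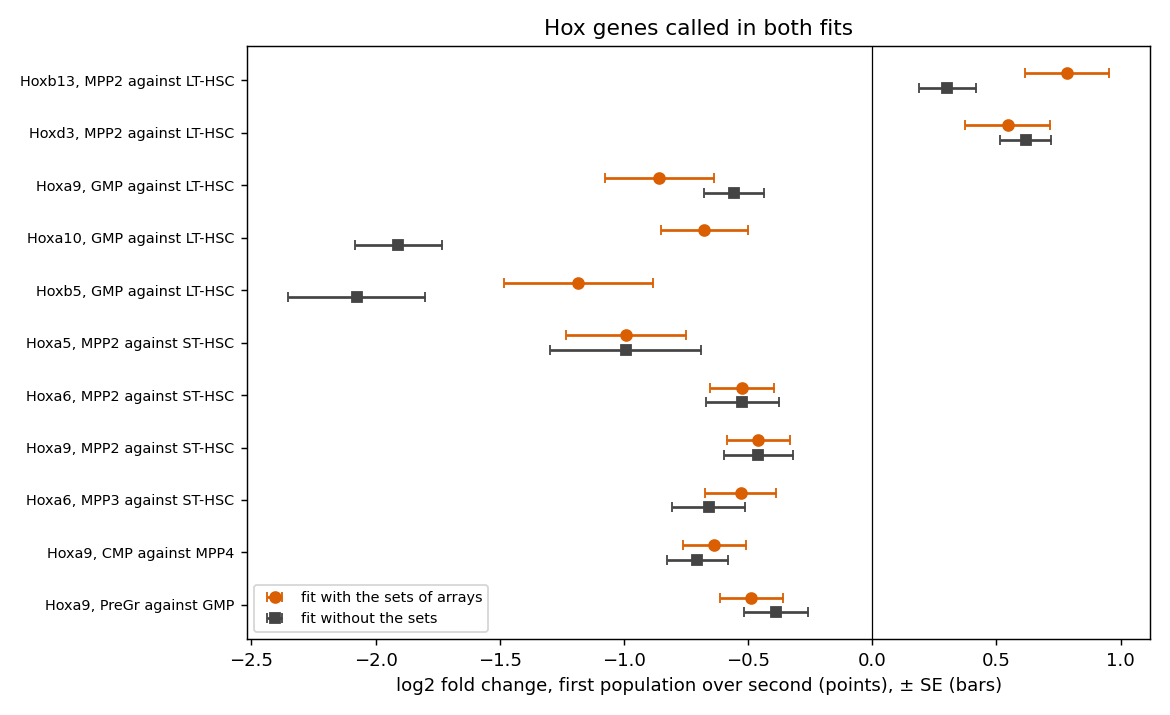
Log2 difference of each of the 11 Hox results called in both fits, with the set as a block and without sets, as estimate ± SE. In GMP against LT-HSC Hoxa10 is -0.68 with sets and -1.91 without, and both values lie below 0.

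Meis1, a cofactor of the TALE class that binds DNA with Hox proteins, fell in GMP against LT-HSC, in GMP against CMP and in PreGr against GMP. Of 9 listed cofactors 8 were measured. Meis1 stood at 8.32, 8.31, 7.76 and 8.85 in GMP, against 11.71, 11.53, 11.60 and 11.70 in LT-HSC. No arrays overlapped, and the difference was -2.85 ± 0.33 with sets (adjusted p 4.77e-06, limma) and -3.32 without. The value with sets equals the difference of GMP 4 and LT-HSC 4, so leaving out other arrays cannot move it. In GMP against CMP it fell by 1.56 ± 0.34 (adjusted p 0.0195, limma, lost without MPP4 4), and in PreGr against GMP by 0.94 ± 0.19 (adjusted p 0.00077, limma). In Gr against PreGr its difference was -0.61 ± 0.19, a call that any of 17 arrays ended. Pbx2, another cofactor, rose by 0.50 ± 0.16 in PreGr against GMP and by 0.61 ± 0.16 in Gr against PreGr, and 5 and 3 arrays ended those calls.

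Mllt3, also called AF9, a partner of the methyltransferase DOT1L, was the listed member of the MLL and DOT1L complexes that fell in most comparisons, 8 of 13. In MPP2 it stood at 10.07, 9.60 and 10.32, against 11.67, 11.10 and 11.19 in ST-HSC, without overlap. The difference was -1.32 ± 0.17 (adjusted p 8.41e-06, limma). It fell by 2.22 ± 0.29 in GMP against LT-HSC (adjusted p 2.22e-05, limma), and by 0.91 ± 0.17 in CMP against MPP4. The value in GMP likewise equals the difference of GMP 4 and LT-HSC 4. Leaving out CMP 1 or CMP 3 ended the call in CMP without sets, and leaving out MPP3 1 or MPP3 2 ended that in MPP2 against LT-HSC with sets. In Gr against PreGr 1 of 15 genes of this list rose (Aff4) and 4 fell, where both fits called 19.3% of all genes. Any of 4 arrays ended the call of Aff4, and any of 25 that of Dot1l. Among those that fell were Ash2l, which differed by -1.20 ± 0.12, and Mllt3, which differed by -0.98 ± 0.17.

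Polycomb genes, of which 21 of 23 listed were measured, were called at steps where a Hox gene fell and at steps where none did. In MPP2 against ST-HSC 2 rose and 1 fell, where both fits called 6.58% of all genes. In MPP3 against ST-HSC 2 rose, where 2.35% were called, and in PreGr against GMP 3 fell, where 15.6% were. In CMP against MPP4 both fits called 0, where 4.03% were called. Rbbp4 rose in MPP2 and in MPP3 against LT-HSC, and 1 and 20 arrays ended those calls. Ezh2, a histone methyltransferase of the complex, stood at 11.11, 11.36 and 11.51 in MPP2, against 10.38, 10.41 and 10.35 in ST-HSC. The groups did not overlap, and it rose by 0.95 ± 0.14 (adjusted p 7.64e-05, limma), while its paralogue Ezh1 fell by 0.58 ± 0.11. Ezh2 and Suz12, another subunit, also rose in MPP3 against ST-HSC, and any of 22 arrays ended the call of Suz12. Rbbp7, Mtf2 and Phf19 fell in PreGr against GMP, and any of 3 arrays ended the call of Phf19. In Gr against PreGr the reverse held: Ezh2 fell by 1.15 ± 0.14 and Ezh1 rose by 0.87 ± 0.11. There 2 of 21 Polycomb genes rose and 4 fell, where both fits called 19.3% of all genes. In GMP against LT-HSC limma called 0 of the 21 in both fits, where 6.65% of all genes were called, and 1 with sets, where 7.82% were.

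Among 11 listed upstream regulators, Rarb, a retinoic acid receptor, stood at 6.80, 6.46 and 6.80 in MPP2, against 8.64, 8.84, 8.70 and 7.20 in LT-HSC. LT-HSC 4 was again the lowest LT-HSC array, and no arrays overlapped. Rarb fell by 1.11 ± 0.29 in MPP2, by 1.11 ± 0.24 in MPP3 and by 0.84 ± 0.21 in MPP4 (adjusted p 0.0230, 0.00891 and 0.0297, limma). The value in MPP3 equals the difference of MPP3 3 and LT-HSC 4, so leaving out other arrays cannot move it. Leaving out MPP3 2 ended the call in MPP2, and leaving out MPP4 4 ended that in MPP4. Rara, another retinoic acid receptor, rose by 1.56 ± 0.15 in PreGr against GMP.

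Of the 16 listed non-coding genes of the clusters, 10 were measured, and both fits called 0 of them in any comparison. Mir196b, whose mature sequence is given above with the seed AGGUAGU, stood at 7.61, 7.73, 7.36 and 6.39 in LT-HSC. Mir196a-1, of the same seed, stood at 5.26, 5.84, 5.80 and 6.70 there. LT-HSC 1 to 3 were thus apart from LT-HSC 4 in both, above it for Mir196b and below it for Mir196a-1. These probes are named by the gene, and do not tell the hairpin from the mature form.

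**Figure D5:**
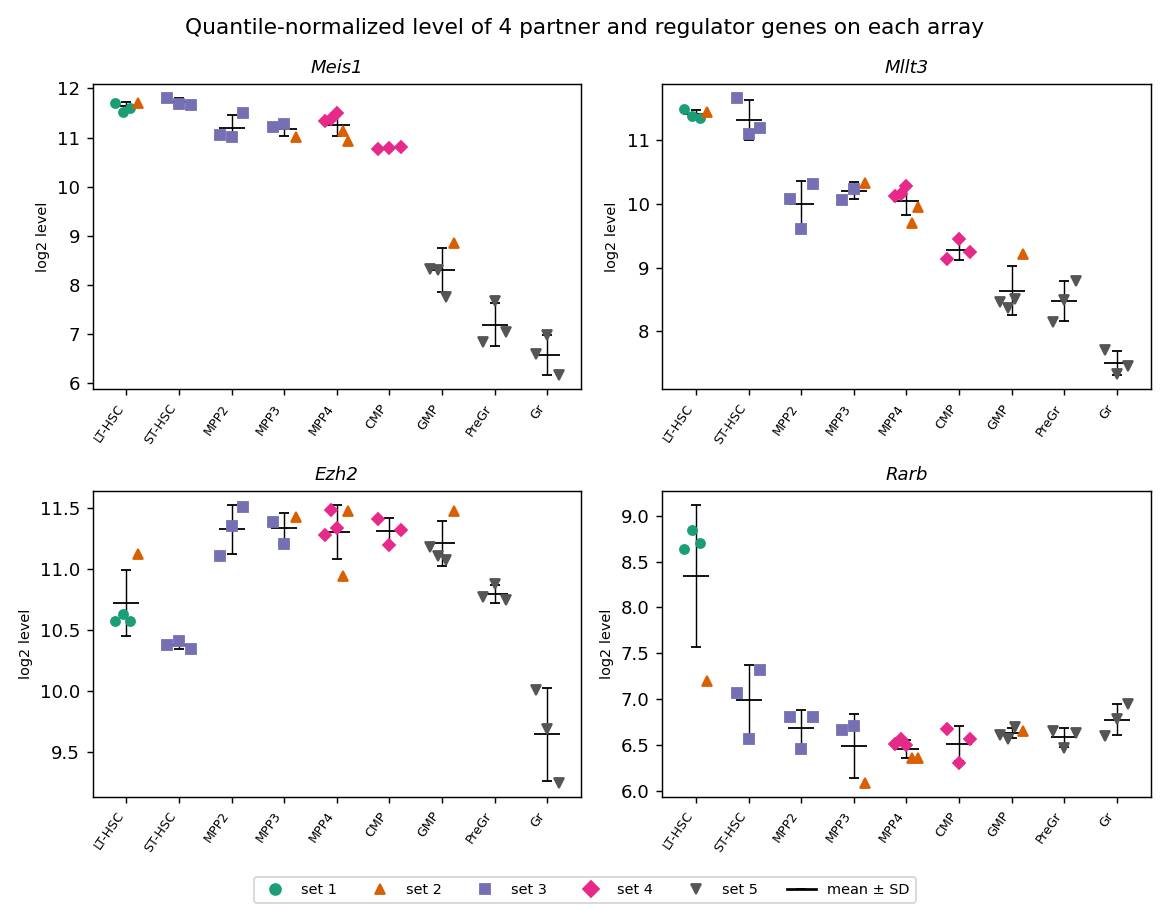
Quantile-normalized log2 level of Meis1, Mllt3, Ezh2 and Rarb in every array of the 9 populations, coloured by set of arrays, with mean ± SD. Meis1 in GMP lies between 7.76 and 8.85, below all LT-HSC arrays, which lie between 11.53 and 11.71.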

How the data were processed

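Total RNA was amplified, labelled with biotin and hybridised to Affymetrix arrays. The authors deposited log2 values made by RMA, per the submitters' processing notes, and no version is given in the sources used here. Of 35557 probes, 21789 named a single gene, 1621 named more than 1 and 12147 named none. Where a gene had more than 1 probe (999 genes) the brightest was kept, giving 19938 genes. Arrays of 1 population correlated at 0.961 to 0.995. The number of arrays limits the precision.

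Values were quantile-normalized and modelled by population in limma 3.58.1 (R 4.3.3), using lmFit, contrasts.fit and the two-sided moderated tests of eBayes. The set of arrays entered as a fixed block (18 residual degrees of freedom), and a second fit had no sets (22). Arrays sharing 2 or more identical values were linked into sets. The labels do not name these sets. Plots used Python 3.11.15 and matplotlib 3.10.9. The fit was tested on simulated data. The members, lists, comparisons and rules were chosen with earlier results of these data known.

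Described array by array are the 10 members with the widest range of population means among those called by the F test in both fits. In each comparison, members called in both fits are named, and up to 3 called in 1 fit only. Genes of other lists are named where both fits call them, up to 4 a list and comparison, not all of which are given. Hoxb2, Hoxb6, the shared probe, Evx1, Skap2, Hibadh, Snx10, S100a8, Mir196b, Mir196a-1 and the sort and cell type markers were named after their values were seen. Alternatives were the deposited values, the set as a random block, all probes, no dim genes, the replicate number as a block, fits within sets and leaving out each array. Same-numbered arrays deviated together (every pair above 0.1) in MPP4 against LT-HSC, at 0.126 to 0.271 over 4 pairs, and in GMP against LT-HSC, at 0.217 to 0.415 over 4 pairs. After the set block these were -0.03 to 0.06 and 0.04 to 0.24. The labels state no shared animal or day for a number.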

Additional observations from a re-analysis of the deposited data

Results flagged for a closer look

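In 3 of 33 groups of 4 or 5 arrays, 1 array stood apart from the others of its population by more than Dixon's test allows. The groups covered 11 members in 3 populations, and chance flags about 1 in 20 groups. Hoxa5 stood at 7.34 in GMP 4, against 6.02 to 6.13 in the other GMP arrays. Hoxa9 stood at 7.69 in GMP 4, against 8.06 to 8.12 in the others. Hoxb1 stood at 7.8 in MPP4 5, against 8.10 to 8.16 in the others. GMP 4 lies in another set of arrays than GMP 1 to 3, so set and array cannot be told apart.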

How the results depend on the processing

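Of 73 results for single Hox genes under other settings than leaving out arrays, 63 kept direction and call, 10 lost the call and 0 reversed. Of 338 results for genes of the other lists, 24 lost the call and 0 reversed. Genes entered both tallies because both fits called them, so the setting without sets kept every call by construction. With all probes, with dim genes left out and within sets the difference is the same as in the main fit. Those settings could lose a call but not reverse it. Without sets the counts of members called were 4 in ST-HSC against LT-HSC, 13 in MPP2, 12 in MPP3, 10 in MPP4 and 15 in GMP against LT-HSC, 3 in MPP2 and 1 in MPP3 against ST-HSC, 7 in GMP against CMP, 0 in Gr against PreGr and 24 in the F test. With the deposited values they were 2 in MPP3 against LT-HSC, 1 in MPP3 against ST-HSC and 4 in PreGr against GMP. With the set as a random block (consensus correlation 0.559) they were 2 in MPP3, 3 in MPP4 and 9 in GMP against LT-HSC, and 1 in Gr against PreGr. With all probes tested they were 1 in MPP3 against ST-HSC and 1 in CMP against MPP4. With dim genes left out, which removed 14 members, they were 2 in MPP3 and 2 in MPP4 against LT-HSC, and 1 in Gr against PreGr. Within single sets they were 0 in MPP3, MPP4 and GMP against LT-HSC, 0 in MPP2 and MPP3 against ST-HSC, 1 in CMP against MPP4, 2 in PreGr against GMP and 1 in Gr against PreGr, where fewer arrays were fitted. The cause of the other moves was not tested.

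With the replicate block beside the set block, the count was 1 in MPP3 against ST-HSC, where Hoxa6 differed by -0.51 (adjusted p 0.0783, limma), and no other call of a named member changed. Comparisons of ST-HSC, MPP2 and MPP3 with LT-HSC and of MPP4 with MPP3 could not be fitted with it. Hoxa6 in MPP3 against ST-HSC also lost its call with the deposited values (adjusted p 0.0641) and with all probes (0.0717).

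Leaving out single arrays from the fit with sets gave counts of 0 to 1 in ST-HSC against LT-HSC, 1 to 5 in MPP2, 1 to 2 in MPP3, 1 to 2 in MPP4 and 4 to 6 in GMP against LT-HSC. They were 1 to 8 in MPP2 and 0 to 3 in MPP3 against ST-HSC, 0 to 1 in MPP2 against MPP3, 0 to 0 in MPP4 against MPP3, 1 to 3 in CMP against MPP4, 0 to 0 in GMP against CMP, 0 to 2 in PreGr against GMP, 0 to 3 in Gr against PreGr and 10 to 14 in the F test. LT-HSC 4, MPP3 3 and GMP 4 could not be left out of the comparisons that link sets through them. A lone array is assumed to vary like the others, and a low signal over background limits the 14 dim members.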
